A study of Mus musculus with 14 samples.

Results

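The 10 genes described here set how glucose enters glycolysis and how lactate is made and moved: Slc16a1, Slc16a3, Slc2a1, Hk1, Hk2, Pfkm, Pfkl, Pfkp, Ldha and Ldhb. They were taken by name, as a list of glycolysis isoforms and lactate carriers. The rule sets no cut on a measured value, but the list was chosen with earlier results of these data known. They are 10 of the 27998 genes in the culture tables and 10 of the 27144 in the RNA immunoprecipitation (RIP) table. In the fresh cells, where 14156 genes have a row, 9 of the 10 have one, and Slc16a3 is not analysed here.

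Glycolysis turns glucose into pyruvate, which cells either pass to mitochondria or reduce to lactate. Slc2a1 encodes GLUT1, the glucose carrier of the blood-brain barrier and of many cell types. Hexokinase traps glucose as a phosphate ester. Hk1 is the widespread brain form and Hk2 an inducible form, and both can bind mitochondria. Phosphofructokinase, the committed step, is a tetramer built from the muscle (Pfkm), liver (Pfkl) and platelet (Pfkp) subunits. Lactate dehydrogenase made of Ldha subunits is associated with making lactate from pyruvate, and the enzyme made of Ldhb subunits with the reverse step. Slc16a1 encodes MCT1, a carrier that moves lactate both ways, and Slc16a3 encodes MCT4, a low-affinity carrier linked to lactate export and induced by low oxygen.

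All cells derive from the subventricular zone of adult mice, where neural stem cells keep making neurons. The 14 samples address active against quiescent stem cells, Aplp1 knockout against wildtype cells, and the mRNAs bound by CPEB4, an RNA-binding protein of the 3′ untranslated region. Wildtype cells were grown for 3 days with BMP4, which brings cultured neural stem cells to rest, or with EGF, a mitogen (1 library each). Cells taken directly from untreated mice form 1 library labelled APLP1-/- and 1 labelled wildtype, each with a companion library of hash tags (oligonucleotides on anti-MHC1 and anti-CD45 antibodies) whose 3 tags mark individual mice. The RIP libraries come from untreated neurospheres, floating cultures of stem and progenitor cells. They comprise CPEB4 precipitates of wildtype cells, CPEB4 precipitates of cells labelled CPEB4-/-, IgG precipitates of wildtype cells and wildtype input, with 2 libraries each. The sources used here name neither strain nor exact age, nor the deleted part of either gene.

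The promoters of these genes differ in a short motif, and 1 window per gene that holds it is shown. The motif is ACGTG, which reads CACGT on the other strand, the core that hypoxia-inducible factors recognise. It overlaps the E-box CACGTG. Each line gives 30 bases of the sense strand, with each match in capitals. They come from the RefSeq promoter table of GRCm38.p6 (250 bases before to 50 after a listed start). Some listed starts are internal: the windows shown for Slc16a3, Hk1 and Ldha lie inside the gene spans given below. Of the 32851 windows in that table, 19.6% hold the motif and 7.15% hold the E-box. By gene, 5886 of 27025 have at least 1 window that holds the motif, and so do 7 of the 10 genes, some of which have several windows. The windows of Pfkl, Pfkp and Ldhb hold none.
Slc16a1 promoter, chr3:104638452-104638481, plus strand: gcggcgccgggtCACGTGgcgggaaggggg
Slc16a3 promoter, chr11:120949034-120949063, plus strand: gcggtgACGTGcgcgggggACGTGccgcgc
Slc2a1 promoter, chr4:119108696-119108725, plus strand: agtcccgccccggACGTGctccccaggccc
Hk1 promoter (the window with a match, of 2 in all), chr10:62340393-62340422, minus strand: cgctccttACGTGgggaACGTGcagggtga
Hk2 promoter, chr6:82774490-82774519, minus strand: caatgagcacatcCACGTcactgtccgggg
Pfkm promoter (1 of the 2 windows with a match, of 4 in all), chr15:98092441-98092470, plus strand: aattaagtatgcCACGTGaagtaagtaatt
Ldha promoter (the window with a match, of 2 in all), chr7:46845750-46845779, plus strand: agcctaCACGTGggttcccgCACGTccgct
A match describes these letters and is not a measured binding site.

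The BMP4 library held 887 cells and 17313999 counts, and the EGF library 1410 cells and 33603623 counts. The fresh library labelled Aplp1 KO held 1879 cells with a median of 424 counts, and the fresh wildtype library 2209 cells with a median of 364. RIP libraries held 10054346 to 17466296 counts. Between 1 and 13 barcodes were shared by any pair of cell libraries. Quiescent stem cell and astrocyte markers (11 genes) summed to 5030 CPM (counts scaled to the library total) in BMP4 cells, against 718 CPM in EGF cells. Active stem cell and transit amplifying markers (12 genes) summed to 399 CPM in BMP4 and 2959 CPM in EGF cells. Microglial markers summed to 9.18 CPM in BMP4 and 8.75 CPM in EGF cells. Markers of oligodendrocytes (110 and 38.6 CPM), pericytes (39.0 and 11.6 CPM) and endothelium (26.5 and 8.21 CPM) were higher in BMP4 than in EGF cells. Those of neuroblasts (331 and 829 CPM) and mature neurons (69.5 and 171 CPM) were lower. Their part in the differences between the cultures was not tested. Levels cannot be compared between the tables: the housekeeping enzyme gene Gapdh stood at 5.70 CPM in the fresh library labelled Aplp1 KO and 6.18 CPM in the fresh wildtype library, but at 1074 CPM in BMP4 and 1349 CPM in EGF cells.

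The first comparison set cells grown with BMP4 against cells grown with EGF. The isoforms of each family did not move together. The BMP4 library carried more Pfkm and Ldhb, less Hk2 and Ldha, and almost no Slc16a3, while Hk1 was at nearly the same level in both. Of the 10 genes, 2 reached 2-fold higher in BMP4 cells, 3 reached 2-fold lower and 5 lay within 2-fold. Of 14502 genes (those whose counts in the cultures sum to 10 or more), 23.1% reached 2-fold higher in BMP4 cells and 15.9% reached 2-fold lower. The median log2 ratio of the 10 genes was 0.21, against 0.15 for all these genes. With 1 library per condition there is no test, and the 95% intervals given for levels, ratios and shares cover counting error only. The library tags transcript ends, so counts do not scale with transcript length, and isoforms of a family are set beside each other in the cultures on that basis.

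Slc16a3, the export-type lactate carrier gene (chr11, 120948484 to 120959000, GRCm38.p6), had 1 count in BMP4 cells and 980 in EGF cells. This is 505-fold lower with BMP4 (90.4 to 19964), a ratio that rests on a single count. Slc16a1, the two-way carrier gene (chr3, 104638664 to 104658462), had 669 counts (38.6 CPM) with BMP4 and 941 counts (28.0 CPM) with EGF, a ratio of 1.38 (1.25 to 1.53). Slc16a1 thus held 99.9% of the counts of both carriers in BMP4 cells (99.2 to 100.0) and 49.0% in EGF cells (46.7 to 51.2). Even in EGF cells the carriers were spread differently. Slc16a3 was found in 366 of 1410 EGF cells, 26.0%, while Slc16a1 with about as many counts was found in 643, 45.6%. After every cell was thinned to 4500 counts, Slc16a3 was seen in 0 of 887 BMP4 cells, an exact 95% interval up to 0.415%, and in 10.4% of EGF cells. The glucose carrier gene Slc2a1 (chr4, 119108745 to 119137330) had 424 counts (24.5 CPM) with BMP4 and 600 counts (17.9 CPM) with EGF, a ratio of 1.37 (1.21 to 1.56).

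Hexokinase counts came mostly from Hk1 in BMP4 cells and about equally from both genes in EGF cells. Hk2 (chr6, 82725025 to 82774454) had 130 counts (7.51 CPM) with BMP4 and 1265 counts (37.6 CPM) with EGF, 5.01-fold lower with BMP4 (4.18 to 6.05). Hk1 (chr10, 62268855 to 62379920) had 582 counts (33.6 CPM) with BMP4 and 1166 counts (34.7 CPM) with EGF, a ratio of 0.969 whose interval spans 1 (0.876 to 1.07). The Hk1 share of both genes was 81.7% with BMP4 (78.7 to 84.5) and 48.0% with EGF (45.96 to 49.97). Of the 2 genes, Hk2 alone differed between the cultures beyond counting error. The antisense gene Hk1os lies within Hk1, and since the strand setting is not given, their reads cannot be told apart.

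The phosphofructokinase family had the clearest exchange of leading subunit. Pfkm (chr15, 98092589 to 98132447) had 1704 counts (98.4 CPM) with BMP4 and 467 counts (13.9 CPM) with EGF, a ratio of 7.08 (6.39 to 7.86). Pfkl (chr10, 77986947 to 78009807) had 543 counts (31.4 CPM) with BMP4 and 1378 counts (41.0 CPM) with EGF, a ratio of 0.765 (0.691 to 0.845). Pfkp (chr13, 6579874 to 6649060) was the least abundant, with 187 counts (10.8 CPM) with BMP4 and 196 counts (5.83 CPM) with EGF, a ratio of 1.85 (1.51 to 2.27). Pfkm made up 70.0% of the family's counts with BMP4 (68.1 to 71.8) and 22.9% with EGF (21.1 to 24.8). Pfkl made up 22.3% with BMP4 (20.7 to 24.0) and 67.5% with EGF (65.4 to 69.5), and Pfkp stayed at 7.68% and 9.60%. In thinned cells Pfkm was seen in 34.3% of BMP4 cells and 6.24% of EGF cells.

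Ldha led its family in both cultures, but by far less under BMP4. Ldha (chr7, 46842274 to 46855627) had 5291 counts (306 CPM) with BMP4 and 22525 counts (670 CPM) with EGF, 2.19-fold lower with BMP4 (2.13 to 2.26). Ldhb (chr6, 142490249 to 142507957) had 4228 counts (244 CPM) with BMP4 and 3106 counts (92.4 CPM) with EGF, a ratio of 2.64 (2.52 to 2.77). The Ldhb share of both genes was 44.4% with BMP4 (43.4 to 45.4) and 12.1% with EGF (11.7 to 12.5). In thinned cells the genes were seen together in 39.3% of BMP4 cells and 26.7% of EGF cells, and Ldha alone in 27.1% of BMP4 cells and 57.7% of EGF cells. Both genes have processed copies in the genome (Ldha-ps, Ldha-ps2, Ldha-ps3 and Ldhb-ps) that could take some of their reads, so these levels carry that uncertainty.

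**Figure D1:**
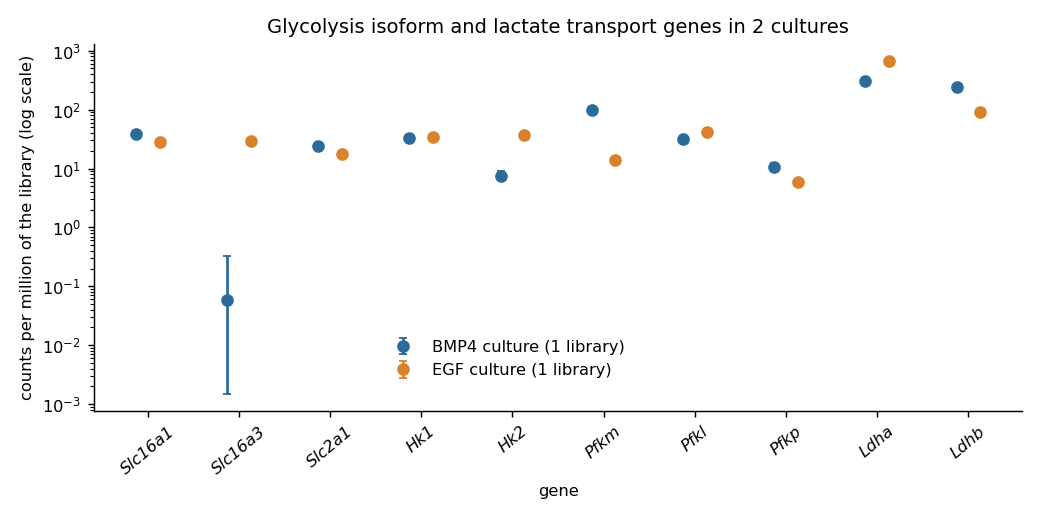
CPM (log axis) for each gene in the BMP4 culture (blue, left of each pair) and the EGF culture (orange), 1 library each, with 95% counting intervals. Slc16a3 stands at 0.0578 CPM in BMP4 and 29.2 CPM in EGF cells, Pfkm at 98.4 and 13.9 CPM, and Hk1 at 33.6 and 34.7 CPM.

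The order of the genes differed with it. In the BMP4 library Ldha (306 CPM) and Ldhb (244 CPM) were followed by Pfkm, then by Slc16a1, Hk1 and Pfkl at 31.4 to 38.6 CPM, Slc2a1, Pfkp, Hk2 and Slc16a3. Of these neighbours, Slc16a1 and Hk1, and Hk1 and Pfkl, had overlapping intervals. In the EGF library Ldha (670 CPM) and Ldhb (92.4 CPM) were followed by Pfkl, Hk2 and Hk1 at 34.7 to 41.0 CPM, Slc16a3 and Slc16a1 at 28.0 to 29.2 CPM, Slc2a1, Pfkm and Pfkp. There the intervals of Pfkl and Hk2, of Hk2 and Hk1, and of Slc16a3 and Slc16a1 overlapped.

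Within the EGF culture, these genes differed by less than 2-fold between cells with and without a cycle transcript. In EGF cells whose thinned counts held Mki67, Top2a or Cdk1 (751 cells), relative to those without one (659 cells), the ratios were 1.30 for Slc16a1, 1.14 for Hk2 and 1.03 for Slc2a1. The other 7 ratios lay between 0.696 for Pfkp and 0.871 for Pfkl. Among cells without such a transcript (823 BMP4 cells and 659 EGF cells), Pfkm was still 6.24 times as high with BMP4 (5.43 to 7.18) and Ldhb 2.37 times (2.23 to 2.51). Hk2 was 4.64-fold lower (3.79 to 5.71), Ldha 2.36-fold lower (2.28 to 2.45) and Slc16a3, with 1 count against 462, 507-fold lower (90.5 to 20066). The Pfkm share in those cells was 70.2% with BMP4 and 24.1% with EGF, the Hk1 share 81.8% and 52.9%, and the Ldhb share 44.8% and 12.7%. There, 23.2% of 13911 genes reached 2-fold higher in BMP4 cells and 14.1% reached 2-fold lower. The 64 BMP4 cells with a cycle transcript had a Pfkm share of 66.7% (58.3 to 74.3). Their Hk1 share was 81.4% (69.1 to 90.3) and their Ldhb share 39.3% (35.6 to 43.0). The shares thus went with the culture more than with the cycle transcript.

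**Figure D2:**
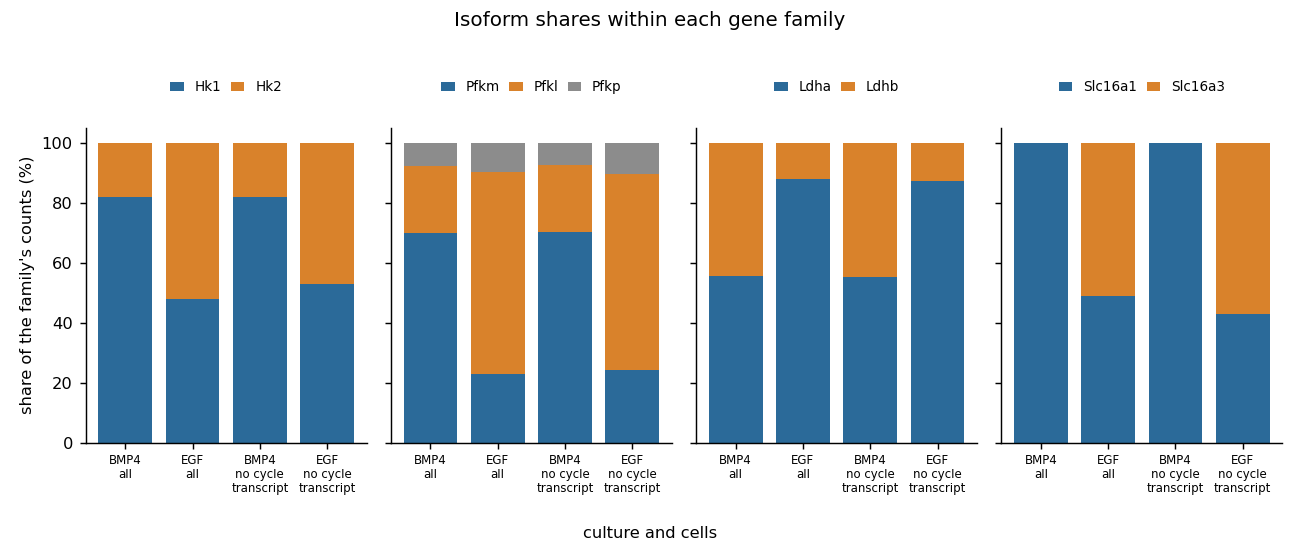
Share of each family's counts (percent) for hexokinases, phosphofructokinases, lactate dehydrogenases and the 2 lactate carriers, in all cells and in cells without a cycle transcript, BMP4 left of EGF. Pfkm takes 70.0% of its family with BMP4 and 22.9% with EGF, and the shares of this family in cells without a cycle transcript are close to these (70.2% and 24.1%).

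Related genes were read from lists of glycolysis, transport, pyruvate, hypoxia and glycogen genes. For each list, here and in the next paragraph, the shares over all genes were 23.1% 2-fold or more higher in BMP4 cells and 15.9% lower. Of 17 other glycolysis enzymes with enough counts, 4 reached 2-fold higher in BMP4 cells and 2 reached 2-fold lower (median log2 ratio 0.04). Ldhd, the D-lactate dehydrogenase, had 54 counts with BMP4 and 4 with EGF, a ratio of 26.2 (9.66 to 99.6), and Pfkfb2, which makes the activator of phosphofructokinase, had a ratio of 4.57 (3.53 to 5.98). Gpi1, the isomerase between hexokinase and phosphofructokinase, was 1.96-fold lower (1.88 to 2.04). Among 12 other carriers 3 were 2-fold or more higher and 1 lower (median -0.07). Slc2a13, a proton-coupled inositol carrier, had a ratio of 24.1 (19.5 to 30.1) and the intracellular glucose carrier gene Slc2a8 of 3.81 (3.07 to 4.74). The neuronal glucose carrier gene Slc2a3 was 2.52-fold lower (1.99 to 3.22), and Slc16a7 had a ratio of 0.560 whose interval spans 1 (0.293 to 1.01).

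Genes that gate pyruvate into mitochondria and genes of glycogen use included both directions. Of 14 pyruvate entry genes, 5 were 2-fold or more higher and 1 lower (median log2 ratio 0.76). Pdk2 and Pdk4, kinases that switch pyruvate dehydrogenase off, had ratios of 8.86 (7.34 to 10.7) and 6.10 (3.28 to 12.1). Pdk1, the hypoxia-induced kinase of the same enzyme, was 3.33-fold lower (2.88 to 3.87), and Pdp2, a phosphatase that switches it on, was 1.45-fold lower (1.06 to 1.99). Of 16 glycogen and pentose phosphate genes, 6 were 2-fold or more higher and 1 lower (median 0.34). The glycogen phosphorylase genes Pygb and Pygm had ratios of 23.8 (20.2 to 28.2) and 22.5 (17.9 to 28.7). The pentose phosphate genes Rpia and Pgls were 2.85-fold (2.29 to 3.57) and 1.70-fold lower (1.64 to 1.77). Of 19 hypoxia-responsive genes, 0 reached 2-fold higher in BMP4 cells and 9 reached 2-fold lower (median -0.87). Adm, a vasodilator peptide gene, was 64.1-fold lower (40.5 to 108), and Ndrg1, with 1 count against 64, was 33.0-fold lower (5.71 to 1323). Plod2 and Mxi1 had ratios of 1.60 (1.48 to 1.73) and 1.56 (1.39 to 1.76).

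Since Slc16a3 sat in few EGF cells and hypoxia-responsive genes differed between the cultures, cells were ranked within each culture by their summed thinned counts of 20 hypoxia-responsive genes, a list that holds none of the 10. In the EGF culture 374 cells had 8 or more such counts (high-score cells) and 407 had 2 or fewer (low-score cells), the quartiles of the score. These are ranges of a continuous score, with 48 and 212 cells at the cut values. Median counts per cell were 22814 in high-score and 22844 in low-score cells, and 48.7% and 51.1% of the cells had a cycle transcript.

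Isoforms of each family parted along this score in EGF cells. Slc16a3 stood at 91.7 CPM (803 counts) in high-score and 3.06 CPM (29 counts) in low-score cells, a ratio of 29.9 (20.7 to 45.0), the largest of the 10. Slc16a1 had a ratio of only 1.72 (1.44 to 2.06). Slc2a1 stood at 43.5 CPM in high-score and 7.18 CPM in low-score cells, a ratio of 6.05 (4.67 to 7.96). Hk2 had a ratio of 5.38 (4.50 to 6.48) and Hk1 of 2.95 (2.51 to 3.48). Among the phosphofructokinases, Pfkp (6.14, 3.88 to 10.1) and Pfkl (5.27, 4.44 to 6.29) went with the score and Pfkm (1.54, 1.20 to 1.97) far less. Ldha stood at 1238 CPM in high-score and 410 CPM in low-score cells, a ratio of 3.02 (2.91 to 3.13). Ldhb stood at 90.3 CPM in high-score and 92.6 CPM in low-score cells, a ratio of 0.976 whose interval spans 1 (0.885 to 1.08).

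In all, 7 of the 10 genes reached 2-fold higher in high-score than in low-score EGF cells, against 3.27% of 12720 genes, and 10 of 16 other glycolysis enzymes did. Of the 7 genes with a promoter window that holds ACGTG, 5 reached 2-fold (Slc16a3, Slc2a1, Hk1, Hk2 and Ldha) and Slc16a1 and Pfkm did not. Of the 3 without one, Pfkl and Pfkp reached 2-fold and Ldhb did not. Most genes with and without the motif thus reached 2-fold, and its part was not tested. The family shares shifted with the levels. In high-score and low-score cells, the Pfkm share was 15.3% and 38.6%, the Ldhb share 6.80% and 18.4%, the Hk1 share 43.8% and 58.7%, and the Slc16a1 share 29.3% and 87.8%.

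In the BMP4 culture the score was lower (median 3 counts and at most 10, against a median of 4 and at most 34 with EGF). Ratios between high-score and low-score cells of this culture lay near 1. Between its 244 high-score (5 or more counts) and 313 low-score cells (2 or fewer), the ratios of the 9 genes other than Slc16a3 ran from 0.856 for Hk2 to 1.24 for Ldha, and 0 of these 9 reached 2-fold higher, against 1.46% of 12478 genes. The interval of Ldha (1.15 to 1.32) was the only 1 of the 9 that left out 1. Slc16a3 had 0 counts in high-score and 1 in low-score cells. With so few score counts, the rank of a BMP4 cell depends much on which counts were sampled. Such a split tends to give ratios near 1 and cannot decide whether these genes follow the listed genes under BMP4.

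Setting the low-score cells of both cultures beside each other, a choice made after the data were seen, changed which genes stood apart. Pfkm was 8.17 times as high in BMP4 as in EGF cells (6.67 to 10.1), Pfkp 5.05 times (3.08 to 8.58), Slc2a1 3.17 times (2.35 to 4.31) and Ldhb 2.66 times (2.44 to 2.90). Pfkl, at a ratio of 0.765 over all cells, stood at 1.98 (1.60 to 2.46) here. Hk2 was 1.93-fold lower (1.38 to 2.75) and Ldha 1.47-fold lower (1.38 to 1.55), both less than 2-fold. Slc16a3, with 1 count against 29, was 17.8-fold lower (2.94 to 725). So 4 genes reached 2-fold higher in BMP4 cells and 1 reached 2-fold lower, against 2 and 3 over all cells. In these low-score cells 22.6% of 12967 genes reached 2-fold higher in BMP4 cells and 15.3% reached 2-fold lower. A cut at so few counts selects BMP4 cells partly by sampling, so the low-score groups of both cultures need not be alike.

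**Figure D3:**
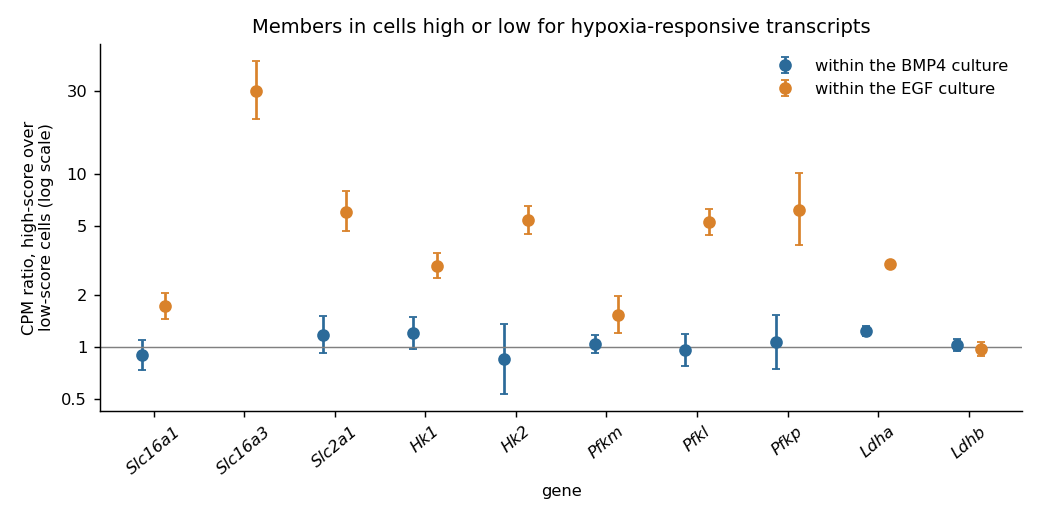
CPM ratio (log axis) of high-score over low-score cells by the hypoxia score, within the BMP4 culture (blue, left) and within the EGF culture (orange), with 95% counting intervals and a line at 1. EGF ratios run from 0.976 (Ldhb) to 29.9 (Slc16a3), while the BMP4 ratios of 9 genes lie between 0.856 and 1.24. Slc16a3 has no BMP4 point, since its counts there were 0 and 1. BMP4 scores rest on few counts per cell, so that split carries much sampling noise.

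Fresh cells were then grouped into clusters made without these 10 genes, without the related lists and without Aplp1, and named from marker genes. Active stem cell and transit amplifying-like cells numbered 694 (822292 counts), neuroblast-like cells 501 (285566 counts) and quiescent stem cell and astrocyte-like cells 2160 (859304 counts). The quiescent and astrocyte markers summed to 2823 CPM in the active-like, 1152 CPM in the neuroblast-like and 48352 CPM in the quiescent-like class. Cycle transcripts summed to 880 CPM in the active-like, 298 CPM in the neuroblast-like and 15.1 CPM in the quiescent-like class. Quiescent stem cells and astrocytes share these markers and were not separated. Each class level is a description, and its interval assumes independent counts. Some cells held several counts of a gene, so the intervals are too narrow.

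Quiescent-like cells carried more of Pfkm, Slc2a1 and Ldhb than active-like cells. BMP4 cells also carried more Pfkm and Ldhb than EGF cells, by 2-fold or more. For Slc2a1 the culture ratio was only 1.37 and depended on the cells compared. BMP4 over EGF was 0.616 (0.502 to 0.752) among high-score and 3.17 (2.35 to 4.31) among low-score cells. Pfkm had 5 counts in 5 active-like cells (6.08 CPM) and 104 counts in 69 quiescent-like cells (121 CPM), 19.9-fold lower in the active-like class (8.26 to 62.6). Slc2a1 had 7 counts in 4 active-like cells (8.51 CPM) and 84 counts in 47 quiescent-like cells (97.8 CPM), 11.5-fold lower (5.34 to 29.4). Ldhb had 50 counts (60.8 CPM) in the active-like and 185 counts (215 CPM) in the quiescent-like class, 3.54-fold lower (2.58 to 4.94). Each of these ratios held its direction, with an interval below 1, in both libraries taken alone. Pfkm was 32.1-fold lower in the library labelled Aplp1 KO and 12.5-fold lower in the wildtype library, Slc2a1 14.0-fold and 9.40-fold, and Ldhb 2.78-fold and 4.55-fold. Endothelial markers, of a cell type rich in Slc2a1, moved with it: 4 of 10 were found in active-like cells (10.9 CPM summed) and 7 of 10 in quiescent-like cells (82.6 CPM). Microglial markers, with 7 of 12 found in each class, summed to 34.1 CPM in active-like and 72.2 CPM in quiescent-like cells. The part of either in these results was not tested.

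Other members differed less or rested on few cells. Pfkp was 3.21-fold lower in active-like cells (1.74 to 6.32; 14 counts against 47) and Pfkl 5.74-fold lower on 2 counts against 12 (1.28 to 52.8). Hk1 was 2.30-fold lower on 10 counts against 24 (1.06 to 5.38). Ldha stood at 68.1 CPM in active-like and 53.5 CPM in quiescent-like cells, and Slc16a1 at 19.5 and 20.9 CPM, both with intervals of the ratio that span 1 (0.846 to 1.92 and 0.443 to 1.93). The Slc16a1 ratio was 0.487 in the library labelled Aplp1 KO and 2.03 in the wildtype library, each on at most 12 counts a class. For Hk1 both libraries taken alone had intervals that span 1, and for Pfkl the wildtype library did. Hk2 was higher in active-like cells, with 33 counts in 14 cells (40.1 CPM) against 7 counts in 3 quiescent-like cells (8.15 CPM), a ratio of 4.93 (2.14 to 13.2). That difference lay in 1 library: 26 counts against 1 in the wildtype library (39.6, 6.51 to 1625), but 7 against 6 in the library labelled Aplp1 KO (0.853, 0.245 to 3.07).

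**Figure D4:**
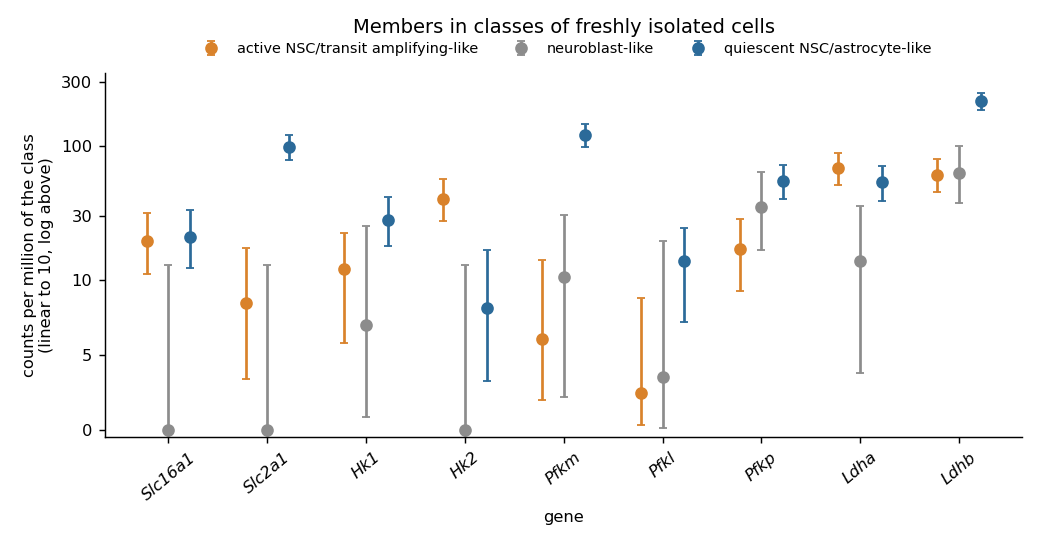
CPM of the class (linear to 10, log above) for the 9 genes in active stem cell and transit amplifying-like (orange), neuroblast-like (grey) and quiescent stem cell and astrocyte-like cells (blue), both libraries summed, with 95% counting intervals. Pfkm and Slc2a1 stand at 6.08 and 8.51 CPM in the active-like class and at 121 and 97.8 CPM in the quiescent-like class, while Ldha and Slc16a1 overlap between these classes.

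Isoform shares in the fresh classes followed from these levels. Genes are not caught evenly in the fresh tables. In the libraries labelled Aplp1 KO and wildtype, Gapdh stood at 5.70 and 6.18 CPM but Aldoa at 121 and 186 CPM. In BMP4 cells they stood at 1074 and 565 CPM. A fresh share is therefore read between classes only and does not rank the isoforms of a family. Pfkm held 23.8% of its family in active-like cells (5 of 21 counts, 8.22 to 47.2) and 63.8% in quiescent-like cells (104 of 163, 55.9 to 71.2). Ldhb held 47.2% (50 of 106, 37.4 to 57.1) in active-like and 80.1% (185 of 231, 74.3 to 85.0) in quiescent-like cells. In neuroblast-like cells Ldhb held 81.8% (18 of 22, 59.7 to 94.8) and Pfkm 21.4% (3 of 14, 4.66 to 50.8). A high Ldhb share was thus not confined to the quiescent-like class. In mature neuron-like cells Ldhb held 9 of 16 counts. Hk1 held 23.3% (10 of 43, 11.8 to 38.6) in active-like and 77.4% (24 of 31, 58.9 to 90.4) in quiescent-like cells. The Hk1 share of active-like cells was 53.3% (8 of 15) in the library labelled Aplp1 KO and 7.14% (2 of 28) in the wildtype library, so it depends on the library. Pfkm and Ldhb shares kept their order in each library: in active-like against quiescent-like cells, Pfkm held 2 of 10 counts against 67.1% in the library labelled Aplp1 KO and 27.3% against 61.3% in the wildtype library. For Ldhb these were 53.2% against 78.8% and 38.6% against 80.8%.

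Levels in the smaller classes rest on few counts. In 501 neuroblast-like cells, Slc16a1, Slc2a1 and Hk2 had 0 counts, which allows a level of up to 10.5 CPM each, while Ldhb stood at 63.0 CPM, Pfkp at 35.0 CPM and Ldha at 14.0 CPM. In 72 microglia/macrophage-like cells Hk2 had 22 counts in 9 cells, 560 CPM (351 to 848), with 0 counts of Hk1, Pfkm, Pfkl and Pfkp. That Hk2 level was 68.8 times the quiescent-like level (28.4 to 191), which rests on 7 counts in 3 cells. The ratio was 40.4 in the library labelled Aplp1 KO (16 counts against 6) and 195 in the wildtype library (6 against 1). A cluster of 41 cells led by Apold1, Flt1 and Ly6c1 stays unnamed, although all 10 endothelial markers were found in it. It held 19 counts of Slc2a1 in 11 cells, 1494 CPM (900 to 2334), 15.3 times the quiescent-like level (8.77 to 25.4). It also had 0 counts of Hk1, Hk2, Pfkm, Pfkp and Ldhb among 12715 counts, where 0 allows up to 236 CPM. In 39 mature neuron-like cells Ldhb (177 CPM), Ldha and Pfkp (137 CPM each) and Slc16a1 (118 CPM, of which 5 of 6 counts were in a single cell) were found, and Slc2a1, Hk1, Hk2 and Pfkl had 0 counts.

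The genotype comparison asked whether loss of Aplp1, a cell adhesion protein of the amyloid precursor family, alters fresh cells. The targeted gene had 54 counts (44.0 CPM) in the library labelled Aplp1 KO and 246 counts (217 CPM) in the wildtype library. By mouse it had 0, 7 and 0 counts for the tags labelled KO and 4, 15 and 22 for the wildtype tags. With 1 library per genotype, an effect of genotype and one of library cannot be told apart. Over all cells the 9 genes had between 8 and 156 counts per library, and the ratio of the library labelled Aplp1 KO to wildtype ran from 0.637 for Hk2 (29 against 42 counts) to 1.54 for Slc16a1 (30 against 18) and Hk1 (25 against 15). All 9 intervals span 1.

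Cells with a clear tag gave 3 mice per genotype (116, 157 and 133 KO cells, against 82, 142 and 239 wildtype cells). Only Ldhb had enough counts for the test across genes. It stood at 187, 161 and 159 CPM in KO mice (169 ± 15.4) and 177, 350 and 208 CPM in wildtype mice (245 ± 92.3, SD, n = 3 each). The groups overlap, and edgeR gave a log2 fold change of -0.50 (SE 0.51) with an adjusted p of 1.00. Of 1109 genes tested, edgeR called 0 higher and 0 lower in KO mice (0% each; 44 and 17 at an unadjusted p under 0.05), and DESeq2 called no member either. The other 8 genes had 0 to 9 counts per mouse, and their exact two-sided permutation p-values ran from 0.3 to 1, where 0.1 is the smallest that 3 against 3 mice allow.

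Among quiescent-like cells of these mice, no member had enough counts for edgeR, and of 609 genes tested 1 was called higher (0.164%) and 0 lower (0%), with 16 and 9 at an unadjusted p under 0.05. Slc2a1 had 3, 4 and 3 counts in KO mice (91.9 ± 17.5 CPM) and 1, 1 and 1 in wildtype mice (31.0 ± 18.8 CPM, SD, n = 3 each). These groups do not overlap, with an exact permutation p of 0.1, the smallest possible, but rest on 1 to 4 counts per mouse. Slc2a1 was 1 of 9 genes examined this way, and the others had exact permutation p-values of 0.3 or more. The share of all genes whose mouse groups do not overlap is not given here, so no conclusion is drawn from this separation. Over the whole quiescent-like class, with untagged cells, Slc2a1 had 41 counts in the library labelled Aplp1 KO and 43 in the wildtype library.

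The RIP libraries measured which mRNAs come down with CPEB4. TMM-scaled CPM are used, and each gene is compared between fractions only. Whether the 2 libraries of a fraction came from separate cultures is not given, so p-values measure the spread between these libraries. The mRNA of Cpeb4 itself had 3109 and 1025 counts in the wildtype CPEB4 libraries, against 4825 and 1285 in the libraries labelled KO, so the counts do not show its loss and these are called the libraries labelled KO. The 2 libraries labelled KO correlated at r = 0.871 over genes, against 0.945 to 0.971 within the other fractions.

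No member was called enriched by the CPEB4 antibody over either control. Against the precipitates labelled KO, log2 fold changes ran from -0.68 for Pfkp to 0.49 for Slc16a3, all with an edgeR adjusted p of 1.00. The libraries labelled KO decide these values: without 1 library, Slc16a1 ran from -0.98 to 1.44, Ldha from -0.85 to 0.84 and Pfkl from -0.44 to 1.01. Against IgG they ran from -1.09 for Ldha (SE 0.55, edgeR adjusted p = 0.601) to 0.34 for Slc16a3 (SE 0.55, adjusted p = 0.830). edgeR called 0 of 17062 genes higher (0%) and 0 lower (0%) in each of these comparisons. At an unadjusted p under 0.05 there were 73 higher and 63 lower against KO, and 526 and 834 against IgG, but 0 of the 10 members in either, and DESeq2 called 0 members in either.

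Against input, 6 of the 10 genes were lower. Of 17062 genes, edgeR called 27.4% higher and 27.6% lower in wildtype CPEB4 precipitates than in input, and 6 of the 10 members lower and 0 higher. The members' median log2 fold change was -1.22, against -0.09 for all genes tested. In IgG precipitates against input, 18.2% of genes were higher and 15.6% lower, with 2 members lower and 0 higher (median -0.97, against -0.13 for all genes). The wildtype input libraries are shared by these comparisons. A ratio over input sets the RNA recovered in a precipitate against the input RNA, and these bulk libraries do not resolve cell types.

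The lactate dehydrogenases had the lowest fold changes of the 10 between wildtype CPEB4 precipitates and input. Ldha had 18.0 and 23.4 CPM in wildtype CPEB4 precipitates, 11.6 and 38.0 in precipitates labelled KO, 56.3 and 31.7 in IgG precipitates, and 164 and 163 in input. All 6 precipitates lay far below both inputs. The log2 fold change was -2.98 for CPEB4 over input (SE 0.58, edgeR adjusted p = 0.00250) and -1.90 for IgG over input (SE 0.56, adjusted p = 0.0279). Ldhb had 22.9 and 20.5 CPM in wildtype CPEB4 precipitates, 21.0 and 30.2 in those labelled KO, 35.4 and 30.9 in IgG, and 71.7 and 69.9 in input. Its log2 fold change was -1.70 for CPEB4 over input (SE 0.35, edgeR adjusted p = 0.00336) and -1.10 for IgG over input (SE 0.35, adjusted p = 0.0371). Without any 1 of the 4 libraries compared, IgG over input called 0 members.

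All 3 phosphofructokinase genes were called lower in CPEB4 precipitates than in input. Pfkp had 5.65 and 4.67 CPM in wildtype CPEB4 precipitates and 19.7 and 12.4 in input, a log2 fold change of -1.64 (SE 0.43, edgeR adjusted p = 0.0101). Pfkl had 7.67 and 8.15 CPM against 21.5 and 18.8 (-1.35, SE 0.46, edgeR adjusted p = 0.0305). Pfkm had 13.2 and 18.6 CPM against 34.2 and 28.1 (-0.97, SE 0.36, edgeR adjusted p = 0.0417). The glucose carrier gene Slc2a1 had 10.6 and 10.2 CPM against 24.7 and 23.9 (-1.23, SE 0.47, edgeR adjusted p = 0.0481). In these 4 genes both precipitates lay below both inputs, as they did for 8 of the 10 members and for 43.2% of all genes tested. With 1 of the 4 libraries left out, whichever it was, Pfkl, Pfkm and Slc2a1 were no longer called. Pfkp was lost in 3 of these 4 fits. Pfkm and Slc2a1 were also lost with DESeq2, with its size factors and with the replicate block. IgG over input had the same direction for these 4 genes, none of them called. It gave -1.12 for Pfkp (SE 0.44), -1.12 for Pfkl (SE 0.47), -0.97 for Slc2a1 (SE 0.48) and -0.55 for Pfkm (SE 0.36). Both IgG precipitates also lay below both inputs for 8 of the 10 members and for 41.3% of all genes tested.

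The hexokinases and both lactate carriers were not called. Hk2 had 5.94 and 7.92 CPM in wildtype CPEB4 precipitates, 5.27 and 7.21 in those labelled KO, 11.4 and 6.08 in IgG, and 5.41 and 8.65 in input. All 4 fractions overlap, and CPEB4 over input gave -0.02 (SE 0.44, edgeR adjusted p = 0.969). Slc16a3 had 2.39 and 1.98 CPM in wildtype CPEB4 precipitates and 2.73 and 1.74 in input, also overlapping (-0.03, SE 0.48, edgeR adjusted p = 0.959). Both values turn positive with DESeq2 size factors (0.06 for Hk2 and 0.05 for Slc16a3). Hk1 gave -0.57 (SE 0.33, edgeR adjusted p = 0.164) and Slc16a1 -1.21 (SE 0.73, adjusted p = 0.181). A p that misses the threshold does not show that these genes were left in place.

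These directions are relative to the rest of each library. TMM factors ran from 0.428 to 2.86, and with library totals alone, added after the data were seen, the median gene moved to -1.57 for CPEB4 over input and -2.62 for IgG over input. On that scale 9 members were called lower over input in CPEB4 precipitates, against 46.4% of all genes, and 10 in IgG precipitates, against 65.5%. For CPEB4 over IgG the median gene moved to 1.02, and 8 members that were lower became higher, none of them called on either scale. Leaving out 1 of the 4 libraries compared left 2 or 3 members called lower in CPEB4 over input, against 6 with all.

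**Figure D5:**
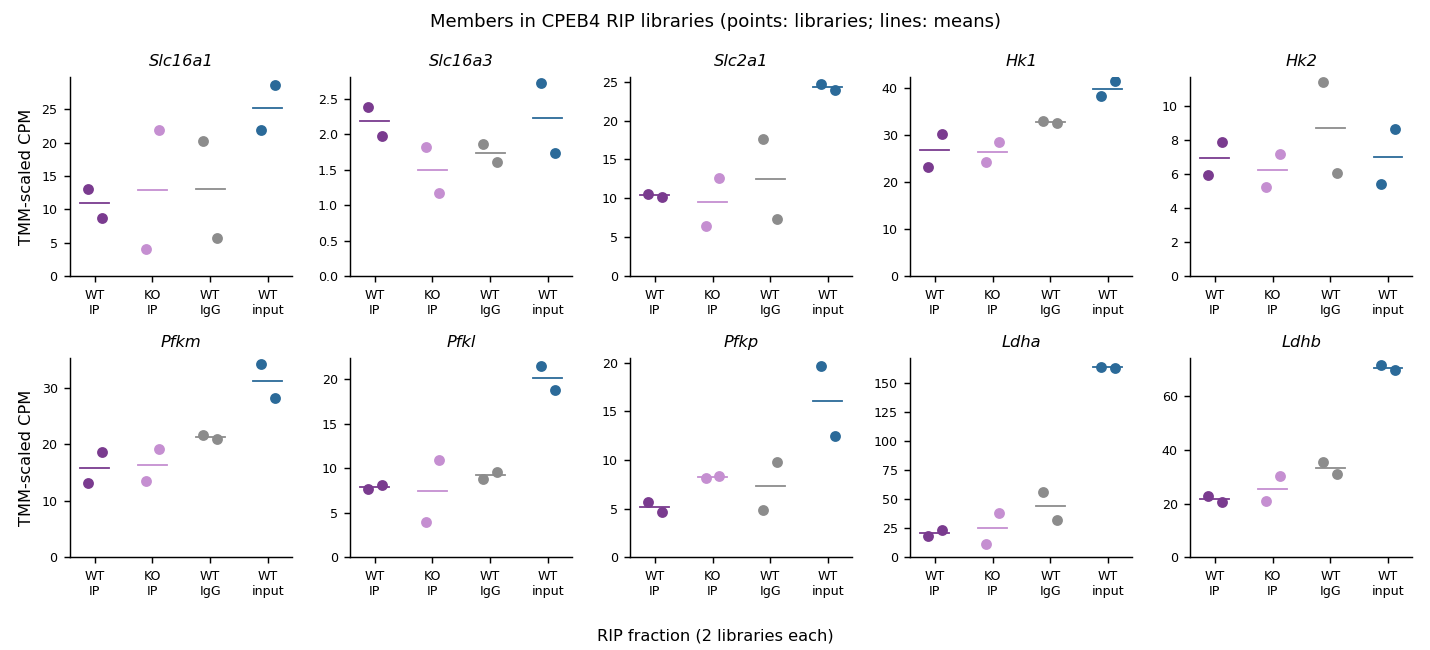
TMM-scaled CPM in each RIP library (points) with the mean of each fraction (lines), 1 panel per gene with its own axis from 0, in the order wildtype CPEB4 precipitate, CPEB4 precipitate labelled KO, wildtype IgG precipitate and wildtype input. Ldha input libraries lie at 163 to 164 CPM above all 6 precipitates (11.6 to 56.3), while the 4 fractions overlap for Hk2.

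Other genes of the pathway also differed between CPEB4 precipitates and input, where 27.4% of all genes tested were called higher and 27.6% lower. A list count near these shares is not a result about that list. Of 17 other glycolysis enzymes tested, 1 rose and 9 fell, led by Aldoc, the brain aldolase (log2 fold change -3.04, SE 0.46, edgeR adjusted p = 0.00105), and Tpi1, triose phosphate isomerase (-2.94, SE 0.53, adjusted p = 0.00186). Of 11 other carriers 3 rose and 4 fell, including Bsg and Emb, the chaperones of the monocarboxylate carriers (-3.39, SE 0.61, and -2.91, SE 0.57, edgeR adjusted p = 0.00181 and 0.00269). Of 13 pyruvate entry genes 0 rose and 5 fell, with Dld at -1.64 and Pdha1 at -1.87, both subunits of pyruvate dehydrogenase (edgeR adjusted p = 0.00637 and 0.00670). Of 16 glycogen and pentose phosphate genes 2 rose and 6 fell, among them Pgd (-2.18) and Pgls (-2.65), which act in the oxidative pentose phosphate branch (edgeR adjusted p = 0.00134 and 0.00146). Of 17 hypoxia-responsive genes 2 rose and 2 fell: Ero1l, an oxidoreductase of the endoplasmic reticulum, rose by 2.23 on the log2 scale and Higd1a, a mitochondrial protein gene, fell by 1.64 (edgeR adjusted p = 0.00179 and 0.00789).

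IgG precipitates against input also had called genes in all 5 lists, where 18.2% of all genes tested were called higher and 15.6% lower. Relative to input, 1 of 17 other glycolysis enzymes rose and 7 fell, among them Ldhd (-1.99) and Tpi1 (-1.98; edgeR adjusted p = 0.0139 and 0.0179). Of the carriers 1 rose and 3 fell, with Slc2a13 at 2.91 and Bsg at -2.88 (edgeR adjusted p = 0.0244 and 0.00785). Among pyruvate entry genes 0 rose and 4 fell, with Pdp1 at -1.88 and Mpc2 at -1.44 (edgeR adjusted p = 0.0411 and 0.0418). Among glycogen and pentose phosphate genes 2 rose and 3 fell, with Pgd at -1.47 and Pgls at -1.55 (edgeR adjusted p = 0.0135 and 0.0235). Of the hypoxia-responsive genes 1 rose and 1 fell, Ero1l at 1.45 and Hilpda at -2.57 (edgeR adjusted p = 0.0216 and 0.0459). Against IgG or the precipitates labelled KO, wildtype CPEB4 precipitates had 0 called genes in all 5 lists, by edgeR.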

How the data were processed

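Single-cell libraries were made from 2 cultures and 2 fresh preparations with 10x Genomics chemistry and oligo(dT) capture, and 8 RIP libraries from neurospheres. The authors deposited raw counts (whole numbers): by gene in each cell, by hash tag in each barcode, and by gene in each RIP library. The submitters' processing notes name the build mm10 and, without roles, Cell Ranger, Bowtie2 and SAMtools. Annotation, strand setting, cell filters and whether fresh counts are reads or molecules: not given in the sources used here. Identifiers were named through a gene table (98.7% of culture and 99.0% of fresh identifiers matched). Positions and promoters are RefSeq GRCm38.p6, the assembly of mm10. No column of other samples and no line without a gene was found (0 each).

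The members and gene lists were chosen with earlier results of these data known. All 10 members were named in every comparison. From each other list, the 2 genes furthest apart in each direction were named if their culture counts summed to 50 or more, and in tested comparisons the 2 called genes of smallest p. 1 gene that this rule names is not reported here. Culture counts were summed over cells, with exact Poisson intervals for levels, conditional binomial intervals for ratios and Clopper-Pearson intervals for shares (95%), which cover counting error only. A count of 0 was bounded by 3 counts. Neither doublets nor free RNA were removed. Cells were thinned to 4500 counts, which left out none.

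Fresh cells were clustered with scanpy 1.11.5 (2000 variable genes, 30 components, 15 neighbours, Leiden resolution 1, alternative 0.5). A cluster was named from 3 or more markers among its top 100 genes by fold, a number chosen after the data were seen. A cell went to a mouse if it had at least 10 tag counts, at least 75% of them from 1 tag. RIP libraries and mouse sums were fitted in R 4.3.3 with edgeR 4.0.16 (filterByExpr, TMM, glmQLFit, glmQLFTest, Benjamini-Hochberg over all genes tested, threshold 0.05), with DESeq2 1.42.0 as an alternative. Fits were tested on simulated data. The main fits did not pair libraries or mice by replicate number, and fits with a replicate block were the alternative.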

Additional observations from a re-analysis of the deposited data

How the results depend on the processing

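Under each setting other than low-score cells of the hypoxia ranking, 2 members reached 2-fold higher and 3 reached 2-fold lower in BMP4 cells. In those cells, chosen after the data were seen, there were 4 and 1, and the EGF shares were 58.7% for Hk1, 38.6% for Pfkm, 18.4% for Ldhb and 87.8% for Slc16a1, with 46.8% for Ldhb under BMP4. In cells without a cycle transcript the EGF shares were 52.9% for Hk1, 12.7% for Ldhb and 42.8% for Slc16a1. Thinning gave 12.5% for Ldhb with EGF and 100% for Slc16a1 with BMP4. Hk1 shares by library, also added, were 53.3% (labelled Aplp1 KO) and 7.14% (wildtype) in active-like cells, and 90.9% (wildtype) in quiescent-like cells. CPEB4 over input called 6 members, and 2 to 3 without 1 library each. It called 4 with the replicate block, with DESeq2 and with its size factors. IgG over input called 2 members: 6 with no filter on low counts, 1 with the replicate block, 10 with library totals only and 0 to 0 without 1 library each. With library totals only, added after the data were seen, Hk2 of IgG over input was -2.24, against 0.30. Same-numbered RIP libraries correlated at 0.10 to 0.33 among input and both CPEB4 precipitates, but at -0.37 to -0.18 between these and IgG. Whether the numbers pair libraries is therefore not settled. Exchanging the IgG numbers in the block, also added, called 0 members over IgG and 3 for IgG over input. The replicate block changed no other call. The causes were not tested. Of 420 alternative fits of members in the RIP comparisons, 330 kept direction and side of the threshold, 30 lost a call, 18 gained one and 42 changed sign. Few counts limit Slc16a3 under BMP4 (1 count) and the mice (0 to 23 counts per member). The sign changes were these. Over the precipitates labelled KO, library totals gave 0.60 for Slc16a1, 0.33 for Pfkm, 0.40 for Ldha and 0.15 for Ldhb. Without 1 library the values over KO ran from -0.98 to 1.44 for Slc16a1, -0.26 to 0.70 for Slc2a1, -0.18 to 0.20 for Hk1, -0.051 to 0.40 for Hk2, -0.29 to 0.24 for Pfkm, -0.44 to 1.01 for Pfkl, -0.85 to 0.84 for Ldha and -0.45 to 0.056 for Ldhb. Over IgG, library totals gave 0.89 for Slc16a1, 0.84 for Slc2a1, 0.72 for Hk1, 0.74 for Hk2, 0.59 for Pfkm, 0.79 for Pfkl, 0.46 for Pfkp and 0.43 for Ldhb, and the exchanged IgG numbers gave 0.10 for Slc16a1. Without 1 library the values over IgG ran from -0.89 to 0.91 for Slc16a1, -0.77 to 0.49 for Slc2a1, -0.72 to 0.18 for Hk2 and -0.93 to 0.080 for Pfkp. For CPEB4 over input, Slc16a3 was 0.050 and Hk2 0.058 with DESeq2 and with its size factors, and Hk2 0.00022 with only the 2 groups. Without 1 library they ran from -0.39 to 0.26 and -0.38 to 0.29, and Hk2 of IgG over input from -0.25 to 0.65.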

Other observations

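Genes whose level followed a member most closely were found over 10 groups (each culture with and without a cycle transcript, and the named fresh classes) among 2890 genes with enough counts. The measure was Pearson r of log2(CPM + 10), with the mean subtracted within the culture groups and within the fresh classes, since levels are not comparable between them. The values are descriptions over groups that share libraries and carry no test. They are the highest of many genes over few groups, and some classes are small. The 21 oligodendrocyte-like cells (13529 counts) held 0 counts of Slc2a1, Pfkm and Ldha and 1 of Ldhb. Slc2a1 was followed by Aldh1l1, an astrocyte enzyme gene (Pearson r = 0.979), Sparc, a matrix protein gene (0.970), and Srsf5, a splicing factor gene (0.969). Pfkm was followed by Ank2, an ankyrin gene (0.976), Hsdl2 (0.976) and Chchd10, a mitochondrial protein gene (0.970). Ldha was followed by Hikeshi, a nuclear import gene (0.924), Pds5b, a cohesin regulator gene (0.924), and Gpi1, the glycolytic isomerase gene (0.913). Ldhb was followed by Camk2n1, an inhibitor of a calcium-dependent kinase (0.958), Rida (0.924) and Ramp1, a receptor partner gene (0.912). The other members had too few counts for this.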
